A study of Mus musculus with 24 samples.

Results

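The expression of 10 genes of DNA methylation and of the Polycomb repressive complex PRC2 was followed in mouse CD4+ T cells over the first 24 h of activation. The genes were taken by name from the 22009 named genes of the deposited table. They are Dnmt1, Dnmt3a, Dnmt3b and Uhrf1, which set and copy DNA methylation, Tet1, Tet2 and Tet3, which oxidize it, and Ezh2, Suz12 and Eed, the core of PRC2. The 24 RNA-seq libraries were made from WT C57BL/6 CD4+ T cells, obtained from adult spleen by negative selection. The study states that cells of several mice were pooled. Resting, unstimulated cells gave 2 libraries. Activation was by antibodies to CD3 and CD28. Th0 cultures had nothing further, Th1 cultures had IL-12 and an antibody to IL-4, and Th2 cultures had IL-4 and antibodies to IL-12 and IFN-γ. Cells were taken at 4, 8, 12, 16, 20 and 24 h, which gave 18 libraries, 1 for each condition and time point. These 18 are called cultures here. Whether the time points of a condition were taken from the same culture is not given. Another 4 libraries came from cells given actinomycin, an inhibitor of transcription, after 16 h of stimulation and taken 0, 1, 2 or 4 h later, and the skewing condition of these is not given. The titles of the resting libraries hold another tag than those of the cultures, and its meaning is not given, so whatever it marks and activation cannot be told apart wherever cultures are set against rest. The methods of the study call these cells naive, and the labels call them purified CD4 cells. Nothing says that the cultures came from separate pools of cells, so the p-values measure the spread between these libraries, which may be technical. In the tests against rest, the Th0, Th1 and Th2 libraries of a time point stood in as its replicates. Their spread therefore also holds differences between the conditions. The values are RPKM, which are reads scaled to the length of the transcript and to the mapped reads of the library. As recovered from the values, a library held between 17.5 M and 33 M mapped reads.

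Dnmt1 is the maintenance methyltransferase that copies CpG methylation onto newly made DNA, and Uhrf1 brings it to sites methylated on a single strand, whereas Dnmt3a and Dnmt3b methylate sites that carried no mark. The Tet enzymes oxidize methylcytosine and so open the way to its removal, and PRC2, in which the methyltransferase Ezh2 needs Suz12 and Eed to work, lays down the H3K27 methylation of silenced genes. In helper T cells both systems are known to take part in silencing the cytokine genes of the alternative fate.

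The 8 T cell markers (Cd3d, Cd3e, Cd3g, Cd4, Cd5, Lck, Cd28 and Thy1) were above 0 in each of the 24 libraries. They summed to 2116 and 2134 RPKM at rest and to between 1229 RPKM (Th0 at 4 h) and 1741 RPKM (Th1 at 20 h) in the cultures, and Thy1 and Cd4 were called lower at 4 h against rest. Il2ra, the activation-induced IL-2 receptor chain, had 19.6 and 18.1 RPKM at rest and 50.5, 72.8 and 118 RPKM in Th0, Th1 and Th2 at 4 h. The skewing was visible at 24 h in Ifng, the Th1 cytokine gene, with 94.5, 388 and 66.2 RPKM, and in Gata3, the Th2 transcription factor gene, with 11.2, 7.21 and 31.1 RPKM, in the same order of conditions. Some libraries stood apart from the others of their time. The SD over genes of a library's log2 distance from the other cultures of its time point was 0.448 for Th2 at 4 h, 0.544 for Th0 and 0.517 for Th2 at 8 h, and 0.250 to 0.408 at 24 h. The SD between the resting libraries was 0.183.

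At 24 h against rest, 5 of the 9 members tested were called higher (Uhrf1, Dnmt3a, Dnmt3b, Ezh2 and Eed) and 0 lower, where 12.7% of all 10897 genes tested were called higher and 17.4% lower. Called means that limma gave at least a 2-fold change on log2(RPKM + 0.5), a scale that understates changes of low genes, with an adjusted p under 0.05. Tet1 had a mean under 1 RPKM and was not tested. The count of 5 was 3 without Resting replicate 1, 3 without the Th1 cultures and 3 after rescaling to the genes other than red-cell markers, since Dnmt3a and Dnmt3b then came under 2-fold. The median change of all genes at 24 h was -0.04, and 0.10 with median-of-ratios scaling and 0.13 with quantile normalization. The members differed in when they were called. At 4 h, 0 were called higher (background 2.61%) and 1 lower, Uhrf1 (background 7.97%). At 8 h, again 0 were higher (6.42%) and only Uhrf1 was lower (12.5%), and without the Th0 cultures Dnmt3a was called too (1.20). At 12 h, Dnmt3a was higher (10.7%) and Uhrf1 lower (16.4%). At 16 h, Dnmt3a was higher (11.2%) and 0 were lower (14.5%), or 1, Uhrf1 (-1.04), without the Th2 cultures. At 20 h Dnmt3a, Ezh2 and Eed were higher (12.9%) and 0 lower (16.1%), and without the Th2 cultures Eed was not (0.94). Beside these counts of 0, limma gave an unadjusted p under 0.05 to 4, 5, 5, 6 and 8 of the 9 members at 4, 8, 16, 20 and 24 h, in either direction. Of all 10897 genes tested, 4569, 6165, 6982, 7351 and 7468 had such a p by limma at these times. The 6 comparisons share the same resting libraries and are not independent of each other.

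**Figure D1:**
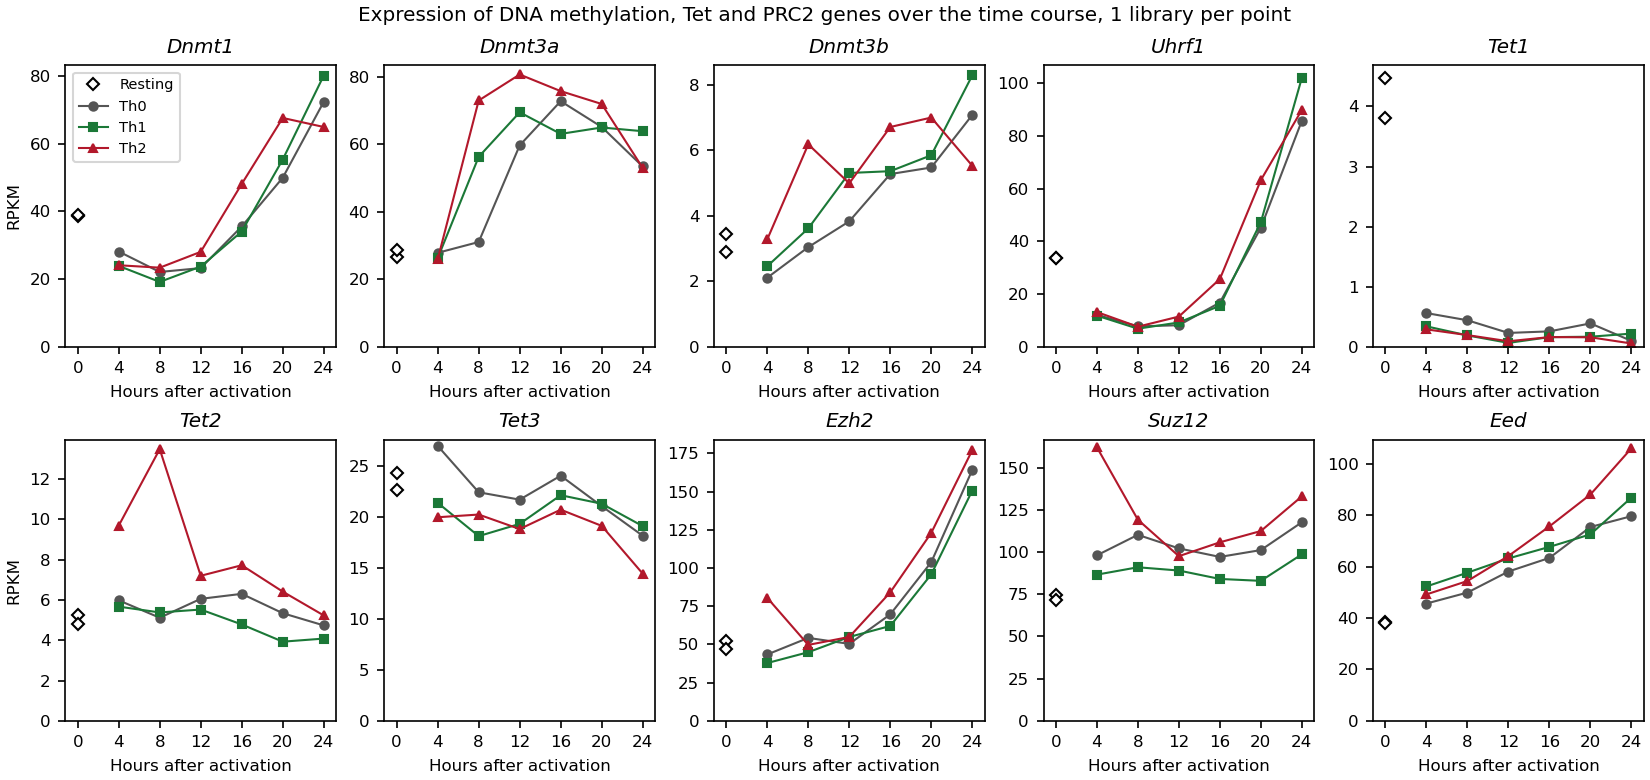
Expression (RPKM, axes from 0) of the 10 genes against hours after activation, 1 library per point. Diamonds are the 2 resting libraries and lines join the 6 time points of Th0, Th1 and Th2. Uhrf1 dips to between 6.80 and 7.67 RPKM at 8 h and ends between 85.8 and 102 RPKM, and Tet1 is under 3.81 RPKM, its lower resting value, in all 18 cultures.

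**Figure D2:**
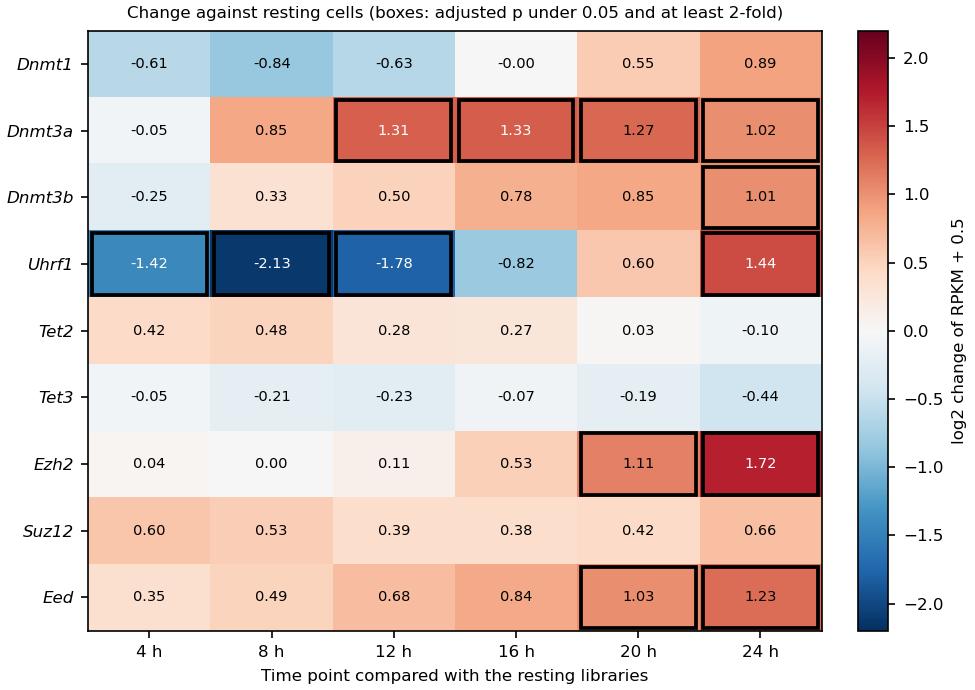
The log2 change of RPKM + 0.5 of the 9 members tested at each time point against the 2 resting libraries, as color and number. Boxes mark changes with an adjusted p under 0.05 and at least 2-fold, among them Uhrf1 at -2.13 at 8 h and 1.44 at 24 h, and Ezh2 at 1.72 at 24 h.

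Uhrf1, of the maintenance pair, fell below rest first and rose above it late, and Dnmt1 was lower at 8 h and higher at 24 h, by less than 2-fold on average. Uhrf1 (ENSMUSG00000001228.14, chromosome 17 from 56303321 to 56323486, plus strand, GENCODE vM21 on GRCm38, as for all positions of genes) had 33.8 and 33.5 RPKM in the resting libraries and 12.1, 11.8 and 13.1 RPKM in Th0, Th1 and Th2 at 4 h. At 8 h it had 7.67, 6.80 and 7.55 RPKM and at 24 h 85.8, 102 and 89.9 RPKM. All 12 cultures from 4 to 16 h were below both resting libraries, and all 6 of 20 and 24 h were above them. How many of all genes lay apart from rest in such a way was not counted. By limma, Uhrf1 changed by -1.42 at 4 h (SE 0.19, adjusted p = 3.27e-05), -2.13 at 8 h (adjusted p = 1.87e-07), -1.78 at 12 h (adjusted p = 8.83e-07) and 1.44 at 24 h (adjusted p = 7.1e-06) on the log2 scale. At 16 h it was -0.82, under 2-fold, but -1.04 without the Th2 cultures, whose value at 16 h was the highest of the 3 (25.6 RPKM). Dnmt1 (ENSMUSG00000004099.16, chromosome 9 from 20907209 to 20959888, minus strand) had 38.7 and 38.9 RPKM at rest, then 22.1, 19.1 and 23.3 RPKM at 8 h and 72.3, 80.1 and 64.9 RPKM at 24 h. Its change against rest was -0.84 at 8 h (adjusted p = 0.000432) and 0.89 at 24 h (adjusted p = 0.000148), both under 2-fold, and with median-of-ratios scaling the latter was 1.03. Pearson's r between Uhrf1 and Dnmt1 was 0.98 over the 20 libraries of the time course, which share pooled cells and the order of time. The ratio of Uhrf1 to Dnmt1 in RPKM was 0.873 and 0.862 at rest, 0.348, 0.355 and 0.324 at 8 h and 1.19, 1.27 and 1.38 at 24 h.

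The promoters of the members were searched for the letters commonly given for E2F sites. The windows are the 250 bases before a RefSeq gene start on GRCm38.p6, and the motifs are TTTCCCGC, TTTCGCGC, TTTGCCGC and TTTGGCGC on either strand. Of all 32851 windows, 1.86% held a match, and 2.16% of genes had such a window. All 10 members had a window and 3 had a match: Dnmt1, in 1 of its 3 windows, Uhrf1, in 1 of 2, and Suz12. Each motif holds a CG, and the matching windows held 26 (Dnmt1), 30 (Uhrf1) and 37 (Suz12) CG, where the median of all windows was 6. The matching Dnmt1 window lay within the gene, with 166 of its 250 bases in annotated exons. The 3 of 10 members and the 2.16% of genes are thus of unlike windows, and enrichment was not tested. The 2 matching windows free of annotated exons are shown here to place the motif, which is in capitals, on the strand of the gene. The Uhrf1 window, chr17:56304063-56304312 on the plus strand, lies within the annotated gene outside its exons, and the match begins 185 bases before the start. The Suz12 window, chr11:79992856-79993105 on the plus strand, lies before the gene, and the match begins 219 bases before the start.
Uhrf1: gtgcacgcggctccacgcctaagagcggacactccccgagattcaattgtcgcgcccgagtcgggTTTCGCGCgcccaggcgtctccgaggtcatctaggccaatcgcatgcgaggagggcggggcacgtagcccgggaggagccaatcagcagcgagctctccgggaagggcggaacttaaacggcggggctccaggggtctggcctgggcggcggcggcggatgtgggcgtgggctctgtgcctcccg
Suz12: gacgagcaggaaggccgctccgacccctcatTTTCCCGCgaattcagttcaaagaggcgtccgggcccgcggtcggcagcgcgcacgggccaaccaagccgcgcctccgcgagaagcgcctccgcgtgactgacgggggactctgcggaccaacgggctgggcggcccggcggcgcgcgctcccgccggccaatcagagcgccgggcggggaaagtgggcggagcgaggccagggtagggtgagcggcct
A match is a description of letters in a window and not of a bound site. Its part in the changes of the members was not tested. Over the time course, Pearson's r of Suz12 was 0.06 with Dnmt1 and 0.05 with Uhrf1.

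The de novo methyltransferase gene Dnmt3a was called earlier than the others that rose, and its highest values were those of 12 or 16 h. Dnmt3a (ENSMUSG00000020661.15, chromosome 12 from 3806007 to 3914443, plus strand) had 26.7 and 28.6 RPKM at rest and 27.8, 26.2 and 25.9 RPKM in Th0, Th1 and Th2 at 4 h. By 8 h it had 31.0, 56.3 and 73.0 RPKM, with Th0 close to rest and Th1 and Th2 far above it. In Th1 and Th2 the highest values, 69.5 and 80.7 RPKM, were those of 12 h, and in Th0 that of 16 h, 72.8 RPKM. From 8 h on, all 15 cultures were above both resting libraries, and how many of all genes were so was not counted. By limma, the change of Dnmt3a was -0.05 at 4 h (adjusted p = 0.890, and 0.02 with median-of-ratios scaling) and 0.85 at 8 h (adjusted p = 0.00608), under 2-fold, but 1.20 at 8 h without the Th0 cultures. It was 1.31 at 12 h (adjusted p = 0.000152), 1.33 at 16 h (SE 0.23, adjusted p = 0.000145) and 1.02 at 24 h (adjusted p = 0.00114). The value at 24 h came under 2-fold without Resting replicate 1 (0.97), without the Th1 cultures (0.93), under quantile normalization (0.94) and after rescaling without red-cell markers (0.92). Dnmt3b (ENSMUSG00000027478.15, chromosome 2 from 153649450 to 153687730, plus strand), the other de novo enzyme gene, was far lower, at 2.88 and 3.44 RPKM at rest and 7.08, 8.29 and 5.53 RPKM at 24 h. Dnmt3b was called at 24 h alone, with a log2 change of 1.01 (adjusted p = 0.00154). That change of Dnmt3b was 0.91 without Resting replicate 1, 0.995 without the Th0 and 0.89 without the Th1 cultures, 0.92 with a pseudocount of 1 and 0.93 after rescaling without red-cell markers. With quantile normalization Dnmt3b was called at 12, 16 and 20 h too. In RPKM, which is per length, Dnmt3b stood at between 0.0618 and 0.133 of Dnmt3a over the 20 libraries. Dnmt3a overlaps an antisense gene (Dnmt3aos), and whether reads were counted by strand is not given, so reads of the 2 cannot be told apart.

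Of the Tet genes, Tet1 was under 1 RPKM in every culture, and Tet2 and Tet3 were within 2-fold of rest on average. Tet1 (ENSMUSG00000047146.17, chromosome 10 from 62804570 to 62908996, minus strand) had 4.47 and 3.81 RPKM at rest, 0.558, 0.337 and 0.287 RPKM in Th0, Th1 and Th2 at 4 h and 0.0945, 0.216 and 0.0519 RPKM at 24 h. The resting and cultured libraries did not overlap, with 0.558 RPKM the highest value of a culture. The share of all genes without such overlap was not counted. Without the filter on low values, the log2 change of Tet1 was -2.38 at 4 h (limma, adjusted p = 8.36e-08) and -2.91 at 24 h (adjusted p = 2.9e-09), past the thresholds. Tet1 was past them at the other 4 times too, from -2.60 at 8 h to -2.90 at 12 h. With Tet1 tested, the members called in either direction numbered 2, 2, 3, 2, 4 and 6 at 4, 8, 12, 16, 20 and 24 h, of which Tet1 was 1 called lower each time. The shares of all genes called against rest in the fit without the filter are not given here. Those given above are of the fit with it. Tet3 (ENSMUSG00000034832.15, chromosome 6 from 83362373 to 83459084, minus strand), the most abundant Tet gene in every library, had 24.3 and 22.6 RPKM at rest and 18.2, 19.1 and 14.5 RPKM at 24 h, a log2 change of -0.44 (adjusted p = 0.0122, under 2-fold). Tet2 (ENSMUSG00000040943.12, chromosome 3 from 133463679 to 133545139, minus strand) was the only member whose values were whole multiples of 1 read, so its counting error could be given. It had 5.25 RPKM (953 reads, 4.93 to 5.60, exact Poisson 95% interval) and 4.83 RPKM (1044 reads, 4.54 to 5.13) at rest. The intervals cover counting error only. Against rest Tet2 was at 0.48 at 8 h (adjusted p = 0.228), but at 0.05 without the Th2 cultures, 0.71 without the Th0 cultures and 0.91 with quantile normalization. It was at -0.10 at 24 h (adjusted p = 0.797), and the latter was 0.03 with median-of-ratios scaling and 0.36 with quantile normalization. Tet2 overlaps the antisense gene Gm42567.

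In PRC2, the catalytic subunit gene Ezh2 rose late and Eed rose steadily, while Suz12 stayed under 2-fold on average at each time point. Ezh2 (ENSMUSG00000029687.16, chromosome 6 from 47530139 to 47595341, minus strand) had 52.1 and 46.8 RPKM at rest and 43.4, 37.8 and 80.5 RPKM in Th0, Th1 and Th2 at 4 h. By 20 h it had 104, 95.8 and 123 RPKM and by 24 h 164, 151 and 177 RPKM. At 4 h the Th2 library lay far above the others, and the Th0 and Th1 libraries lay below both resting libraries. All 9 cultures from 16 h on were above rest. By limma, Ezh2 was at 0.04 against rest at 4 h (adjusted p = 0.908), at -0.28 without the Th2 cultures and at -0.03 without Resting replicate 2. It rose by 1.11 at 20 h (adjusted p = 0.000448), or 0.88 with quantile normalization, and by 1.72 at 24 h (SE 0.22, adjusted p = 7e-06). Eed (ENSMUSG00000030619.9, chromosome 7 from 89954654 to 89980983, minus strand), which binds the methylated histone tail, had 38.7 and 37.9 RPKM at rest, then 45.7, 52.3 and 49.2 RPKM at 4 h and 79.7, 87.0 and 106 RPKM at 24 h. All 18 cultures exceeded both resting libraries in Eed, and it was higher than rest by 0.35 at 4 h (adjusted p = 0.0429, under 2-fold), 1.03 at 20 h (adjusted p = 4.42e-06) and 1.23 at 24 h (adjusted p = 5.74e-07). The value at 20 h came under 2-fold without the Th2 cultures (0.94), under quantile normalization (0.84) and after rescaling to the genes other than red-cell markers (0.93). Suz12 (ENSMUSG00000017548.15, chromosome 11 from 79993106 to 80034123, plus strand), the scaffold subunit gene, had 74.7 and 71.6 RPKM at rest and was above both resting libraries in all 18 cultures, from 82.9 RPKM (Th1 at 20 h) to 162 RPKM (Th2 at 4 h). The largest of its 6 changes against rest was 0.66, at 24 h (adjusted p = 0.0123), under 2-fold. Each of the 3 overlaps an antisense gene: Gm26625 (Ezh2), E230029C05Rik (Eed) and Gm26563 (Suz12). How many of all genes lay above both resting libraries in as many cultures as these 3 was not counted. An adjusted p under 0.05 against rest by limma was given to 63.7% and 65.2% of all genes at 20 and 24 h.

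Within the cultures, without the resting libraries, 5 of 9 members were called higher at 24 h than at 4 h (Uhrf1, Ezh2, Dnmt1, Dnmt3b and Dnmt3a) and 0 lower, where 13.3% of 10737 genes were called higher and 13.0% lower. The log2 differences were 2.86 for Uhrf1 (SE 0.14, adjusted p = 1.65e-10), 1.67 for Ezh2 (adjusted p = 1.78e-07) and 1.5 for Dnmt1 (adjusted p = 1.28e-07, limma). Dnmt3b was higher by 1.26 (adjusted p = 1.89e-05) and Dnmt3a by 1.07 (adjusted p = 0.000115), the latter 0.98 without the Th1 cultures and 0.98 after rescaling without red-cell markers. The other 4 members stayed under 2-fold: Eed was at 0.87 (adjusted p = 6.89e-07), Suz12 at 0.05 (adjusted p = 0.706), Tet2 at -0.52 (adjusted p = 0.0170) and Tet3 at -0.39 (adjusted p = 0.00331). By limma, 8 of the 9 had an unadjusted p under 0.05, as did 7743 of the 10737 genes. The sign for Suz12 turned under quantile normalization (-0.15), without the Th0 (-0.05) or the Th1 cultures (-0.01) and without red-cell markers (-0.04).

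Markers of several other cell types fell along the same time course, and their part in the changes of the members was not tested. The study describes lysis of red cells before the T cells were purified. The 9 red-cell precursor markers summed to 38944 and 42501 RPKM at rest, with Hbb-bs the most abundant (13994 and 15013 RPKM). They summed to 34290.2, 29430.3 and 47174 RPKM in Th0, Th1 and Th2 at 4 h, when 2 of 9 were called lower, 28504, 19355 and 15001 RPKM at 8 h and 204, 142 and 212 RPKM at 24 h, when 9 of 9 were called lower. The macrophage markers, led by C1qa at rest (109.6 and 107 RPKM), summed to 567 and 587 RPKM at rest, then to 57.9, 46.7 and 78.8 RPKM at 4 h and 11.7, 12.6 and 8.09 RPKM at 24 h, when 8 of the 8 tested of 9 were called lower. At 4 h, 7 of the 8 were already lower, with Adgre1 at -3.69 (adjusted p = 5.33e-10, limma). The 7 B cell markers, led by Cd79b at rest, summed to 71.3 and 81.5 RPKM at rest and 14.6, 9.98 and 19.0 RPKM at 24 h, with 2 called lower at 4 h and 7 at 24 h. The 4 NK cell markers summed to 49.2 and 51.8 RPKM at rest and 9.92, 17.5 and 10.7 RPKM at 24 h, led by Klrb1c at rest and Prf1 at 24 h, with 3 called lower at 24 h. The 4 dendritic cell markers summed to 9.05 and 10.9 RPKM at rest and to 2.14, 1.72 and 1.90 RPKM at 24 h, where 2 of the 2 tested were lower, and Itgax was the most abundant at rest. Granulocyte markers (5 genes, led by Mpo at rest) summed to 13.6 and 10.6 and then 1.74, 0.795 and 2.77 RPKM, with 2 of 4 tested lower. The CD8 pair Cd8a and Cd8b1 summed to 12.4 and 12.7 and then 8.23, 7.44 and 11.9 RPKM, with 0 of 2 called by limma at 24 h (1 at an unadjusted p under 0.05). Of these genes, Ly6g was at 0 in both resting libraries and 16 of 18 cultures, Marco at 0 in Th0 at 16 h, C1qa in Th2 at 16 h and Elane in Th1 at 24 h, and the others were above 0 in all 20 libraries. In such bulk RNA, fewer cells of a type and less RNA per cell cannot be told apart. Rescaled to the sum of genes other than red-cell markers, an alternative chosen after the data were seen, Uhrf1 changed by 1.34, Ezh2 by 1.62 and Eed by 1.13 at 24 h.

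**Figure D3:**
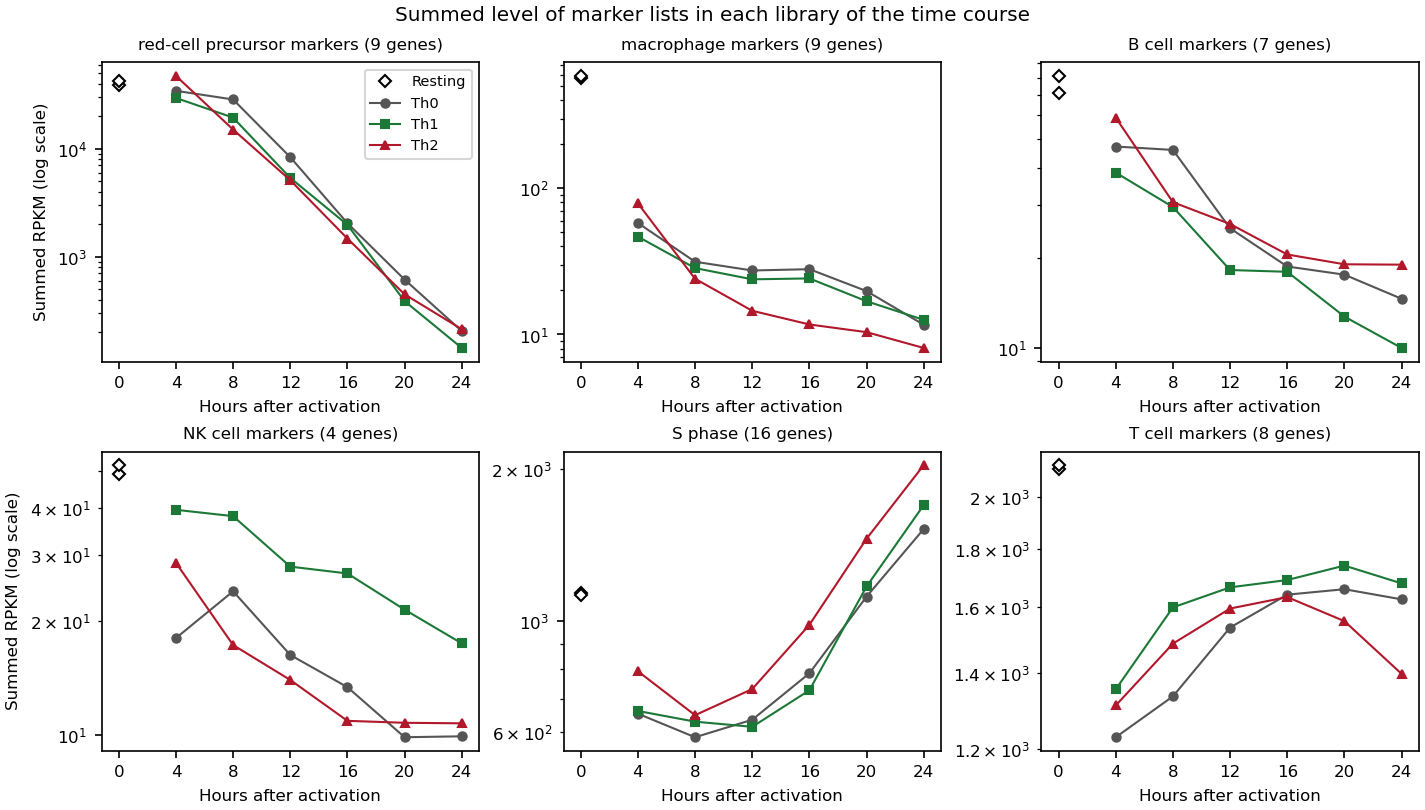
Summed RPKM (log scale) of 6 lists of marker genes in each library of the time course, against hours after activation; diamonds are the resting libraries and lines join the cultures of 1 condition. Red-cell precursor markers go from 38944 and 42501 RPKM at rest to 204, 142 and 212 RPKM in Th0, Th1 and Th2 at 24 h, and the S phase list has its lowest sum, 587 RPKM, in Th0 at 8 h.

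The genes that act beside the members moved in both directions. Of the 8 genes of PRC2 partners and Ezh1, 3 were called higher and 2 lower at 24 h against rest, with a median log2 change of 0.70 where that of all genes was -0.04. Phf19, an accessory subunit that reads histone marks, rose by 1.84 (adjusted p = 2.09e-05), and Rbbp7, a histone-binding subunit, by 1.35 (adjusted p = 1.34e-06), with Aebp2 the third. Phf1, another accessory subunit, fell by 2.93 (adjusted p = 1.67e-06, limma), and Ezh1, the paralog that can replace Ezh2, fell by 1.18 (adjusted p = 4.6e-05). Ezh1 had 30.3 and 32.5 RPKM at rest and 13.6, 15.7 and 11.8 RPKM at 24 h. The ratio of Ezh2 to Ezh1 in RPKM was 1.72 and 1.44 at rest, 1.13, 1.14 and 3.15 in Th0, Th1 and Th2 at 4 h and 12.1, 9.57 and 15 at 24 h. In PRC1, the second Polycomb complex, 5 of 21 genes were called higher and 1 lower at 24 h (median 0.08), with Kdm2b up by 1.90, Bmi1 by 1.32 and Cbx2 by 1.22. Kdm2b, which binds unmethylated CpG, was already higher at 4 h (1.59, adjusted p = 0.000112). Among the 5 genes of H3K27 demethylases and the H2A deubiquitinase, Kdm6b, a demethylase, was higher at 4 h (1.46, adjusted p = 0.000922), and 0 were called at 24 h (limma, 3 at an unadjusted p under 0.05, median 0.04). Kdm6b was at 0.04 then, and at -1.42 for 24 h against 4 h.

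Among DNA methylation partners, 2 of 5 tested genes were called higher at 24 h and 0 lower (limma, 3 at an unadjusted p under 0.05, median 0.12). Hells, the remodeler that gives methyltransferases access to chromatin, had 11.1 and 8.62 RPKM at rest, then 5.45, 6.32 and 4.94 RPKM at 4 h and 62.8, 68.6 and 107 RPKM at 24 h, a log2 change of 2.92 (adjusted p = 1.56e-07, limma). Its cofactor Cdca7 rose by 2.64 (adjusted p = 3.3e-05). Dnmt3l, the sixth gene of the list, was at 0 in both resting libraries and in 16 of 18 cultures. Of 11 methyl-CpG readers and base excision genes, 1 was higher and 3 lower at 24 h (median -0.43): Tdg, the glycosylase that removes the products of Tet oxidation, rose by 1.57 (adjusted p = 2.47e-05), while Gadd45a was at -3.92, Zbtb4 at -2.07 and Zbtb38 at -1.37. In the supply of cofactors, 2 of 5 genes were higher and 1 lower at 24 h (median -0.00). Ahcy, which clears the product of methylation, rose by 2.07, Mat2a, which makes the methyl donor, by 1.23, and Idh1, which makes the substrate of the Tet enzymes, was at -1.87. At 4 h against rest, 0 of the 8 PRC2 partners and 0 of the 5 DNA methylation partners were called by limma (5 and 2 at an unadjusted p under 0.05), with medians of 0.37 and -0.18. In the other lists, Gadd45b was higher (1.78) while Idh1 (-1.19) and Idh2 (-1.31) were lower.

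Among S phase genes, many were lower early, and more were higher than lower at the end. At 4 h against rest, 7 of 16 were called lower and 0 higher by limma (12 at an unadjusted p under 0.05), with a median of -0.66, and at 24 h 6 were higher and 4 lower, with a median of 0.26. Mcm3, of the replicative helicase, had 35.8 and 38.5 RPKM at rest, 19.1, 19.8 and 24.6 RPKM in Th0, Th1 and Th2 at 8 h and 152, 168 and 155 RPKM at 24 h, a change of 2.08 at 24 h (adjusted p = 4.21e-07). Mki67, the proliferation marker, did otherwise: from 94 and 91.8 RPKM at rest it fell to 2.67, 2.78 and 3.11 RPKM at 16 h and had 8.93, 11.7 and 11.3 RPKM at 24 h, -3.08 on the log2 scale (adjusted p = 1.47e-09, limma). Within the cultures, 9 of the 16 were higher and 1 lower at 24 h than at 4 h. The list summed to 1133 and 1124 RPKM at rest, to 587, 630.1 and 649 RPKM at 8 h and to 1519.7, 1696 and 2035 RPKM at 24 h, with Pcna the most abundant throughout. The part of cycling cells in the values of Uhrf1, Dnmt1 and Ezh2 was not tested.

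Likeness over the 20 libraries was measured by Pearson's r of log2(RPKM + 0.5) among 10897 genes, as a description, since the libraries share pooled cells and the time axis. The genes most like Uhrf1 were Chaf1a (0.993), Dtl (0.991), Mms22l (0.989), Orc1 (0.987) and Exo1 (0.985). For Ezh2 they were Cks1b (0.961), Rfc3 (0.952), Trip13 (0.948), Rpa2 (0.940) and Mrpl18 (0.935). Dnmt3a was most like Atmin (0.988), Lig3 (0.986), Ddx19a (0.985), Trmt1 (0.984) and Nol6 (0.981). Tet2 had no such close neighbors, the nearest being Atf3 (0.828), Trib1 (0.818), Zbtb21 (0.813), Prnp (0.802) and Epcam (0.787). Between members, r was 0.87 for Dnmt1 with Ezh2, 0.83 for Dnmt3a with Dnmt3b and 0.82 for Ezh2 with Eed, but 0.14 for Dnmt3a with Uhrf1 and 0.06 for Dnmt1 with Suz12. The lowest values were negative, -0.69 for Tet3 with Eed, -0.59 for Tet3 with Ezh2 and -0.53 for Dnmt3b with Tet3, and r was -0.47 for Uhrf1 with Tet2.

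Between skewing conditions, averaged over the 6 time points of the 18 cultures, the members differed by less than 2-fold. Tet2 was highest in Th2 at 6 of 6 time points. How many of all genes kept 1 order of conditions at all 6 time points was not counted, for Tet2 or the members below. At 8 h the Th2 culture had 13.5 RPKM of Tet2 (2412 reads, 13.0 to 14.0, exact Poisson 95% interval), the Th0 culture 5.12 RPKM (1191 reads, 4.83 to 5.42) and the Th1 culture 5.38 RPKM (1359 reads, 5.10 to 5.68). At 4 h Tet2 had 5.98, 5.67 and 9.69 RPKM in Th0, Th1 and Th2, and at 24 h 4.74, 4.08 and 5.23 RPKM, closer together. By limma, Tet2 was higher in Th2 by 0.66 than in Th1 (SE 0.13, adjusted p = 0.00232) and by 0.47 than in Th0 (adjusted p = 0.0123). With only 12 to 24 h these differences were 0.49 and 0.22, and over the 17 alternatives the adjusted p was between 0.00134 and 0.0721 against Th1 and between 0.00763 and 0.274 against Th0. Suz12 was lowest in Th1 at 6 of 6 time points, with 98.1, 86.6 and 162 RPKM in Th0, Th1 and Th2 at 4 h and 118, 98.7 and 133 RPKM at 24 h. Th2 exceeded Th1 in Suz12 by 0.44 (adjusted p = 0.00273). Ezh2 was higher in Th2 than in Th1 by 0.37 (adjusted p = 0.0367), at 6 of 6 time points, but by 0.23 without the 4 h libraries (adjusted p = 0.0824, with 0.127, 0.10 and 0.0567 without 16, 20 or 24 h, and between 0.0265 and 0.989 over the 17 alternatives). Against Th0, Th2 was higher in Uhrf1 by 0.29 (adjusted p = 0.0370) and in Eed by 0.21 (adjusted p = 0.0270), and Tet3 was at -0.24 (adjusted p = 0.0236), lower in Th2 at 6 of 6 time points. The adjusted p came over 0.05 for Uhrf1 without 4 h (0.0529), 12 h (0.136), 16 h (0.117) or 20 h (0.124). It did so for Eed without 12 h (0.0688), 16 h (0.0864), 20 h (0.0608) or 24 h (0.0671), and for Tet3 without 4 h (0.0783), 12 h (0.0673) or 16 h (0.0616). That of Tet2 was under 0.05 with any 1 time point left out.

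With the threshold of 2-fold, 0 of 9 members were called between Th2 and Th0 (2.01% of 10737 genes), 0 between Th2 and Th1 (1.96%) and 0 between Th1 and Th0 (0.494%). By limma, 8, 4 and 1 members had an unadjusted p under 0.05, as did 4423, 2718 and 1757 of all 10737 genes. An adjusted p under 0.05 was given to 4, 3 and 0 members and to 29.6%, 12.2% and 2.27% of all genes. These 3 comparisons share their cultures. Differences in the time slope were called for 0 members between Th2 and Th0 (0.0373% of genes), 0 between Th2 and Th1 (0.177%) and 0 between Th1 and Th0 (0%). An unadjusted p under 0.05 by limma was given to 2, 2 and 0 members, and to 812, 767 and 241 of the 10737 genes. The slope of Tet2 over 20 h differed by -0.83 between Th2 and Th0 (SE 0.32, adjusted p = 0.622), and that of Dnmt3b by -0.87 (SE 0.37, adjusted p = 0.643). Myc, a growth regulator induced by T cell activation and named here after its values were seen, was highest in Th2 at the early times. It had 52.2, 73.1 and 157 RPKM in Th0, Th1 and Th2 at 4 h and 79.5, 199 and 257 RPKM at 8 h. Of the 16 S phase genes, 0 were called by limma for Th2 against Th0 (9 at an unadjusted p under 0.05, median 0.22) or Th2 against Th1 (8, median 0.26). Among markers of other cells, 2 of 4 NK cell genes (Ncr1 and Prf1) were called higher in Th1 than in Th0 and Th2, 1 of 6 tested B cell genes (Cd79b) higher in Th2 than in Th1, and 1 of 7 tested macrophage genes (Lyz2) lower in Th2 than in Th0. Their part in the differences of the members was not tested. Their lists summed to 24.0, 38.0 and 17.3 RPKM (NK cell), 46, 29.6 and 30.7 RPKM (B cell) and 31.4, 28.5 and 24.1 RPKM (macrophage) in Th0, Th1 and Th2 at 8 h, led by Prf1, Cd79b and Lyz2.

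**Figure D4:**
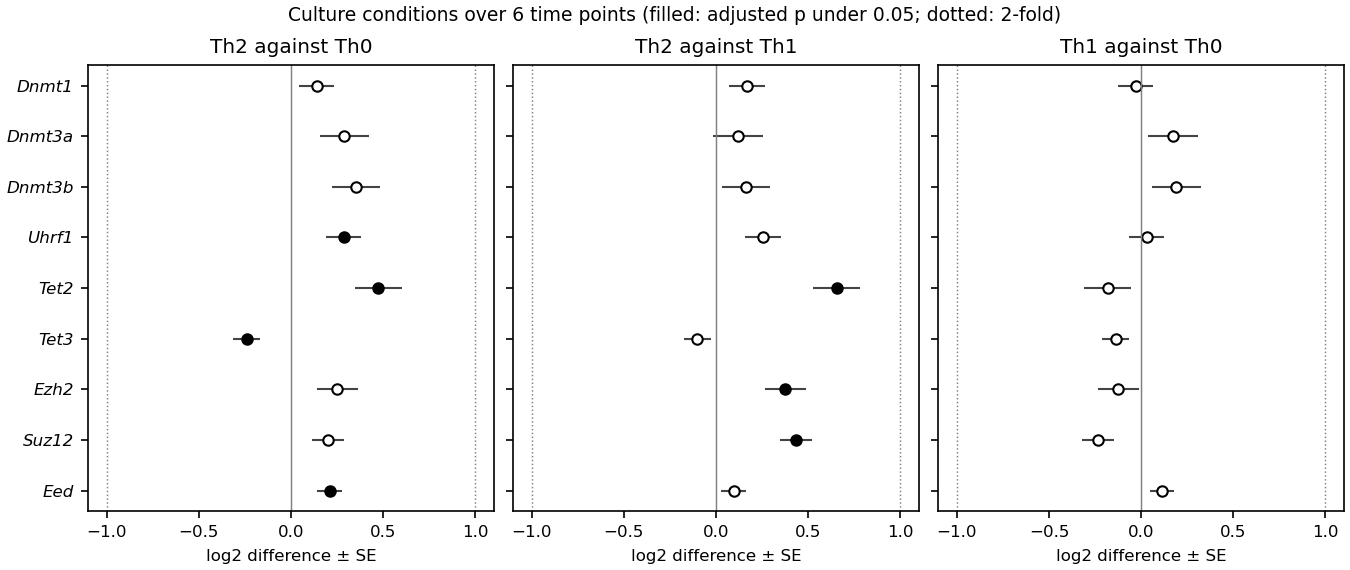
Log2 differences with SE between culture conditions over 6 time points for the 9 members tested; filled points have an adjusted p under 0.05 and dotted lines mark 2-fold. Every point lies between the dotted lines, the furthest being Tet2 at 0.66 for Th2 against Th1.

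After actinomycin, which was added at 16 h of stimulation, no member passed the threshold over 4 h, and Tet2 came closest to it. RPKM is relative to the total, so a stable transcript can rise as others decay. Tet2 had 5.67, 6.20, 6.48 and 11 RPKM at 0, 1, 2 and 4 h, at 0 h from 1340 reads, 5.37 to 5.98 RPKM and at 4 h from 1823 reads, 10.5 to 11.5 RPKM (exact Poisson 95% intervals). Its slope was 0.90 log2 units over 4 h (SE 0.30, adjusted p = 0.0189, limma), under the threshold of 1 log2 unit. The adjusted p by limma was 0.0753 without the 1 h library and between 0.00225 and 0.110 over the alternatives. Most of the difference lay between 2 and 4 h. Ezh2 had 72.8, 65.3, 59.3 and 53.1 RPKM, a slope of -0.44 (adjusted p = 0.144), and Eed had 69.3, 63.5, 58.8 and 49.7 RPKM, a slope of -0.47 (adjusted p = 0.116). Each was lower at every later time than at the one before. The slope was -0.32 for Suz12, -0.19 for Dnmt1, -0.02 for Dnmt3a, 0.06 for Uhrf1, 0.04 for Dnmt3b and 0.28 for Tet3, with adjusted p-values between 0.309 and 0.971. In the 2 h library 5 of the 9 members had their lowest value, Uhrf1 with 16.2, Dnmt1 with 25.8, Dnmt3a with 47.6, Dnmt3b with 4.84 and Tet3 with 14.3 RPKM. At 4 h these had 24.2, 31.9, 62.0, 6.28 and 19.9 RPKM in the same order. Of the 9 members, 0 were called against 9.55% of 10571 genes. An unadjusted p under 0.05 by limma was given to 3 members (Tet2, Ezh2 and Eed) and to 3491 of the 10571 genes. The fit rests on 4 libraries with 2 residual degrees of freedom. Myc, whose transcript is short-lived, went from 194 to 60.5 RPKM (slope -1.69, adjusted p = 4.64e-09). Of the 21 PRC1 genes, 1 was called with a rising slope, Cbx7, at 1.72 (adjusted p = 1.28e-09), and 1 with a falling slope.

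The actinomycin libraries differed from the cultures of 16 h in their markers of other cells, so levels are not compared between them. The B cell markers summed to 3.67, 3.51, 3.58 and 4.93 RPKM at 0, 1, 2 and 4 h, against 18.7, 18 and 20.5 RPKM in Th0, Th1 and Th2 at 16 h. The macrophage markers summed to 54.8, 66.7, 78.2 and 60.9 RPKM, led by Lyz2 and at 4 h by Cd68, with 1 of 4 tested called higher and 1 lower, and the red-cell markers to 2522, 1405, 1150.3 and 2279.8 RPKM, led by Hbb-bs, with 2 of 7 tested called higher. The granulocyte markers, led by Mpo, summed to 17.4, 18.9, 13.8 and 6.29 RPKM, with 3 of 4 tested called lower, and the NK cell markers, led by Prf1, to 4.04, 3.04, 2.65 and 1.11 RPKM, with the 1 tested lower. The CD8 pair summed to 4.96, 3.81, 5.90 and 4.95 RPKM and the dendritic cell markers, of which 0 could be tested, to 2.45, 1.77, 2.67 and 2.68 RPKM. By limma 0 of 2 tested B cell genes and 0 of 1 CD8 genes were called (0 at an unadjusted p under 0.05). Of all these markers Ly6g alone was at 0, in each of the 4 libraries, and their part in the slopes of the members was not tested. The S phase list summed to 991, 893, 839 and 687 RPKM.

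**Figure D5:**
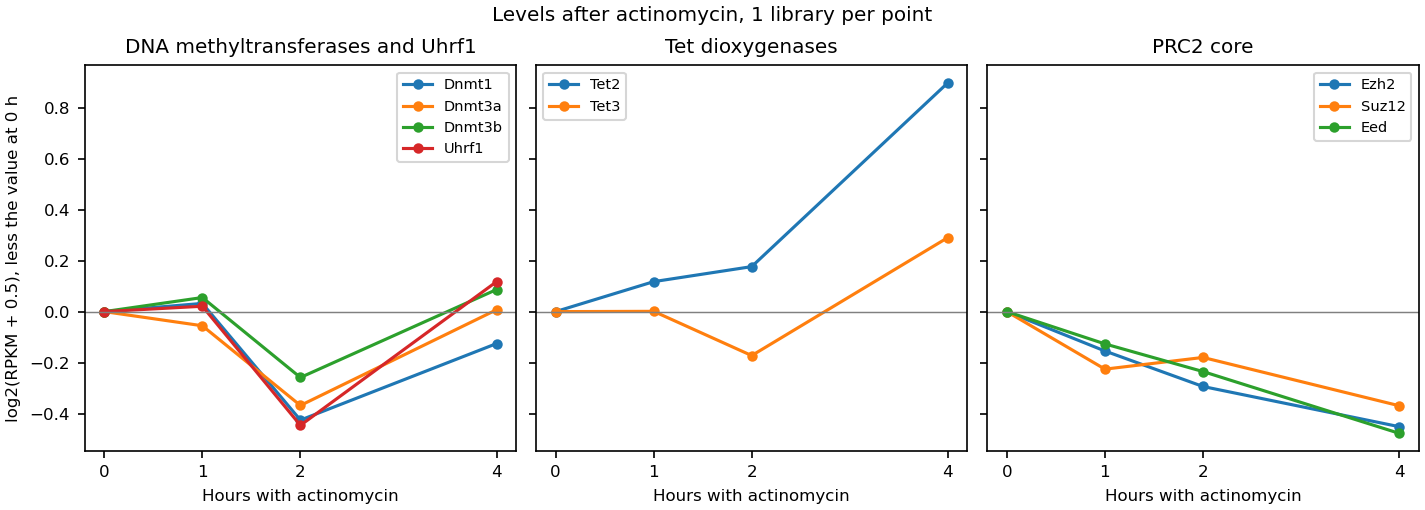
log2(RPKM + 0.5) of the 9 members tested, less the value at 0 h, against hours with actinomycin, 1 library per point, with the methyltransferase genes and Uhrf1, the Tet genes and the PRC2 genes in separate panels. Tet2 goes from 5.67 to 11 RPKM, and Ezh2 from 72.8 to 53.1 RPKM.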

How the data were processed

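RPKM values were computed by the authors and deposited as 1 column for each of the 24 libraries. The submitters' processing notes name BWA and GRCm38, and the version, the read counter and the annotation are not given in the sources used here. An entry without a gene name (1) was left out. Mapped reads per library were recovered from low values: genes with a single transcript whose values lay within 0.02 of whole multiples of 1 step were used, and 684 of 1093 (62.6%) gave the same depth. Values were tested as log2(RPKM + 0.5) with limma 3.58.1 in R 4.3.3, with an intensity trend, where the mean over the libraries of a fit reached 1 RPKM, and p-values were adjusted over all genes tested by the method of Benjamini and Hochberg. Time points were set against rest over 20 libraries, with time point as the only term, so differences between conditions were part of the spread. The fit of 24 h against 4 h and of the conditions used 18 cultures with time point and condition as terms, slope differences used a linear term in hours, and the actinomycin slope used 4 libraries. The fits were tested on simulated data. The 10 members and the lists (partners and readers of the 2 systems, S phase, activation and cell type markers) were chosen with earlier results of these data known. At most 4 called genes of a list, those with the largest change, are named per comparison, except 1 gene that is not reported here, beside the 5 genes most like Uhrf1, Ezh2, Dnmt3a and Tet2. Alternatives were pseudocounts of 0.1 and 1, no filter and one at 5 RPKM, 3 other scalings, no intensity trend, fewer libraries, times or conditions, no time term, and, chosen after the data were seen, rescaling without red-cell markers. Python 3.11.15 with numpy 2.4.6, pandas 2.3.3, scipy 1.17.1 and matplotlib 3.10.9 was used for the other steps.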

Additional observations from a re-analysis of the deposited data

How the results depend on the processing

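Of 1722 values of single members under alternatives, 1660 had the sign and the call of the setting used here, 41 changed sign, 6 came past the threshold and 15 lost it. Of 191 counts of members called, 12 moved by over 1.5 times, and of 382 counts of all genes called, 26. The cause of these shifts was not tested. Without a filter on low values, or with only the libraries compared, Tet1 was tested too and the members called numbered 2 at 4, 8 and 16 h. The shares of all genes called at these times in these fits are not given here. With only the libraries compared, Tet1 reached the mean of 1 RPKM through the resting libraries alone, so its call there is no support. Without a filter the actinomycin slope gave 211 higher and 320 lower genes, against 420 and 590. A filter at a mean of 5 RPKM gave 209 higher and 456 lower. It left fewer genes to test, and called 221 higher and 425 lower at 4 h, 620 higher and 714 lower at 8 h, 1048 higher and 1005 lower at 12 h, 1088 higher and 855 lower at 16 h, 1268 higher and 999 lower at 20 h and 1246 higher and 1147 lower at 24 h, where the filter at 1 RPKM called 284 and 868, 700 and 1359, 1163 and 1787, 1219 and 1579, 1410 and 1749, and 1389 and 1891. It also gave 39 genes higher in Th2 than in Th1 (from 61) and 3 with a higher slope (from 5). A pseudocount of 0.1 gave 31 genes higher in Th2 than in Th0 (from 20). Quantile normalization called 549 higher and 732 lower at 4 h, 1070 higher and 1129 lower at 8 h, 1600 higher and 1435 lower at 12 h, 1599 higher and 1380 lower at 16 h and 1850 higher and 1613 lower at 24 h, and 2 members at 16 h. With it the log2 value was 0.15 for Dnmt3b at 4 h, -0.10 and -0.064 for Ezh2 at 8 and 12 h, 0.36 for Tet2 at 24 h, -0.15 for Suz12 at 24 h against 4 h and 0.086 for the slope of Dnmt3a after actinomycin. Median-of-ratios scaling gave 0.022 for Dnmt3a and 0.024 for Tet3 at 4 h, 0.071 for Dnmt1 and 8.41e-05 for Tet3 at 16 h, 0.029 for Tet2 at 24 h and -0.011 for the slope of Dnmt3b after actinomycin. Upper-quartile scaling gave 0.00400 for Dnmt3a and 0.00571 for Tet3 at 4 h, 0.031 for the slope difference of Uhrf1 between Th2 and Th1 and 0.037 for the slope of Dnmt3a after actinomycin. Slopes of 5 genes were higher and of 14 lower in Th2 than in Th1, and 5 higher and 8 lower with median-of-ratios, 5 higher and 7 lower with upper-quartile and 5 higher and 6 lower with quantile scaling, which also gave 1 higher and 1 lower for Th2 and Th0 (from 1 and 3). With the time point left out of the model, 10 higher and 69 lower genes were called for Th2 and Th0 (from 20 and 196), 36 higher and 67 lower for Th2 and Th1 (from 61 and 149) and 8 higher and 11 lower for Th1 and Th0 (from 19 and 34). Over 12 to 24 h only, Dnmt3b was at -0.021 in Th2 against Th1 and Dnmt1 at 0.065 in Th1 against Th0. The difference of 4 h and 0 h with actinomycin was 0.00732 for Dnmt3a. Rescaled without red-cell markers, an alternative chosen after seeing the data, Ezh2 was at -0.047 at 8 h, Tet2 at -0.065 at 20 h and Suz12 at -0.036 at 24 h against 4 h, and 3 members were called at 24 h.

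With 1 resting library, 1 culture condition or 1 time point left out in turn, the members called were 1 to 2 at 8 h, 1 to 2 at 16 h and 3 to 5 at 24 h, and 21 to 39 genes were lower in Th1 than in Th0. The log2 values ranged over -0.28 to 0.26 for Ezh2 at 4 h and -0.074 to 0.078 at 8 h, -0.18 to 0.035 for Tet3 at 4 h, -0.16 to 0.090 for Dnmt1 at 16 h, -0.12 to 0.20 for Tet2 at 20 h, -0.049 to 0.22 for Suz12 at 24 h against 4 h, -0.064 to 0.012 for Dnmt1 and -0.015 to 0.068 for Uhrf1 in Th1 against Th0 and 0.0073 to 0.025 for the slope of Dnmt3a after actinomycin. A single resting library left in a fit is taken to have the spread of the other groups. No paired analysis was possible because each culture was sequenced once, so the groups share fewer than 2 replicate numbers. The conditions are matched by time point, which is a term of their fit. Counting intervals could be given for Tet2, and for the other members the reads behind a value were not recovered.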
